A study of Mus musculus with 7 samples.

Results

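The genes described here are 10 of the 22180 genes measured in C2C12 cells: Mstn, Gdf11, Inhba, Fst, Acvr2b, Tgfb1, Tgfb2, Tgfb3, Tgfbr1 and Smad3, which carry signals of the myostatin, activin and TGF-beta family. They were chosen by symbol, with earlier results of these data known. Each was represented by 1 probe set that the platform annotation assigns to that gene alone. C2C12 is an established mouse myoblast line that divides in serum-rich medium. The cells were transfected with an siRNA against GLP (siGLP, 2 arrays), an siRNA against G9a (siG9a, 3 arrays) or a control siRNA (Control, 2 arrays). All groups were grown in the same serum-containing medium and with the same transfection reagent, so that Control cells were also transfected. GLP is the product of Ehmt1 and G9a that of Ehmt2, a pair of histone methyltransferases acting on lysine 9 of histone H3, and the study asked whether their roles in myoblasts are distinct. The siRNA sequences are not used here, and off-target effects were not tested.

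Ligands of the TGF-beta family are secreted as precursors, are held latent by their own propeptides or trapped by binding proteins, and act through pairs of type II and type I receptor kinases. Myostatin, GDF11 and activin bind the activin type II receptors, while the TGF-betas bind TGFBR2. Both branches lead to phosphorylation of SMAD2 and SMAD3, which enter the nucleus with SMAD4. In skeletal muscle this branch is known for limiting muscle growth and for holding back the differentiation of myoblasts, and loss of myostatin in mice, cattle and other mammals enlarges the muscles.

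Expression was read as RMA log2 signal, in which 1 unit is a doubling of signal, on 1 array per sample. Array medians were 4.54 to 4.59, and Pearson's r between arrays was 0.996 to 0.997 within groups and 0.994 to 0.996 between groups (across genes, not independent replicates). Ehmt2 had a log2 signal of 7.37 and 7.37 in siGLP, 6.31, 6.14 and 5.99 in siG9a, and 7.56 and 7.46 in Control, and fell by 1.37 on the log2 scale in siG9a (SE 0.10; adjusted p = 0.0308, limma with Benjamini-Hochberg correction). Ehmt1 had 5.73 and 6.13 in siGLP, 6.74, 6.60 and 6.53 in siG9a, and 6.71 and 6.73 in Control, and its difference in siGLP did not pass over all genes (-0.79, SE 0.14; limma adjusted p = 0.197). All 6 myoblast markers examined (Myod1, Myf5, Des, Cdh15, Pax7 and Itga7) lay above the median of all genes, as did 3 of 6 myotube markers (Acta1, Tnnt3 and Myog, with Ckm, Myh3 and Myh8 below it). The leukocyte marker Ptprc lay at the 10.8th percentile of level, and none of the 3 endothelial or 4 fibroblast markers lay above the median. The leukocyte-associated gene Cd68 lay at the 76.8th percentile, with a mean log2 signal of 7.69 in siGLP, 7.76 in siG9a and 7.14 in Control. Whether Cd68 has a part in any result was not tested. The labels do not say whether replicates came from separate cultures, and p-values therefore reflect only the spread among these arrays, which could be purely technical.

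None of the 10 genes passed a Benjamini-Hochberg adjusted p under 0.05 over all genes in siGLP against Control, in siG9a against Control, or in siGLP against siG9a (limma). The smallest adjusted p among them was 0.30 in siGLP against Control, 0.249 in siG9a against Control and 0.321 in siGLP against siG9a. Over all genes, 0.00451%, 0.0271% and 0.234% passed in these comparisons. At an unadjusted p under 0.05 stood 1 of the 10 in siGLP against Control (Tgfb2), where 8.63% of all genes did. In siG9a against Control 2 of the 10 did (Tgfb1 and Tgfb2), where 10.5% of all genes did, and in siGLP against siG9a 1 did (Tgfbr1), where 12.4% did. Arrays of siGLP did not overlap those of Control in 6 of the 10, where 34.2% of all genes showed no overlap. Arrays of siG9a did not overlap those of Control in 3 of the 10, where 25.7% of all genes showed none. Arrays of siGLP did not overlap those of siG9a in 2 of the 10 (Acvr2b and Tgfbr1), where 26.3% of all genes showed none. The siGLP and siG9a comparisons share the Control arrays, so their differences are not independent of each other. How many of all genes had the arrays of both knockdowns on the same side of Control was not counted. The data are bulk measurements, in which fewer cells of a type and less RNA per cell cannot be told apart.

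**Figure D1:**
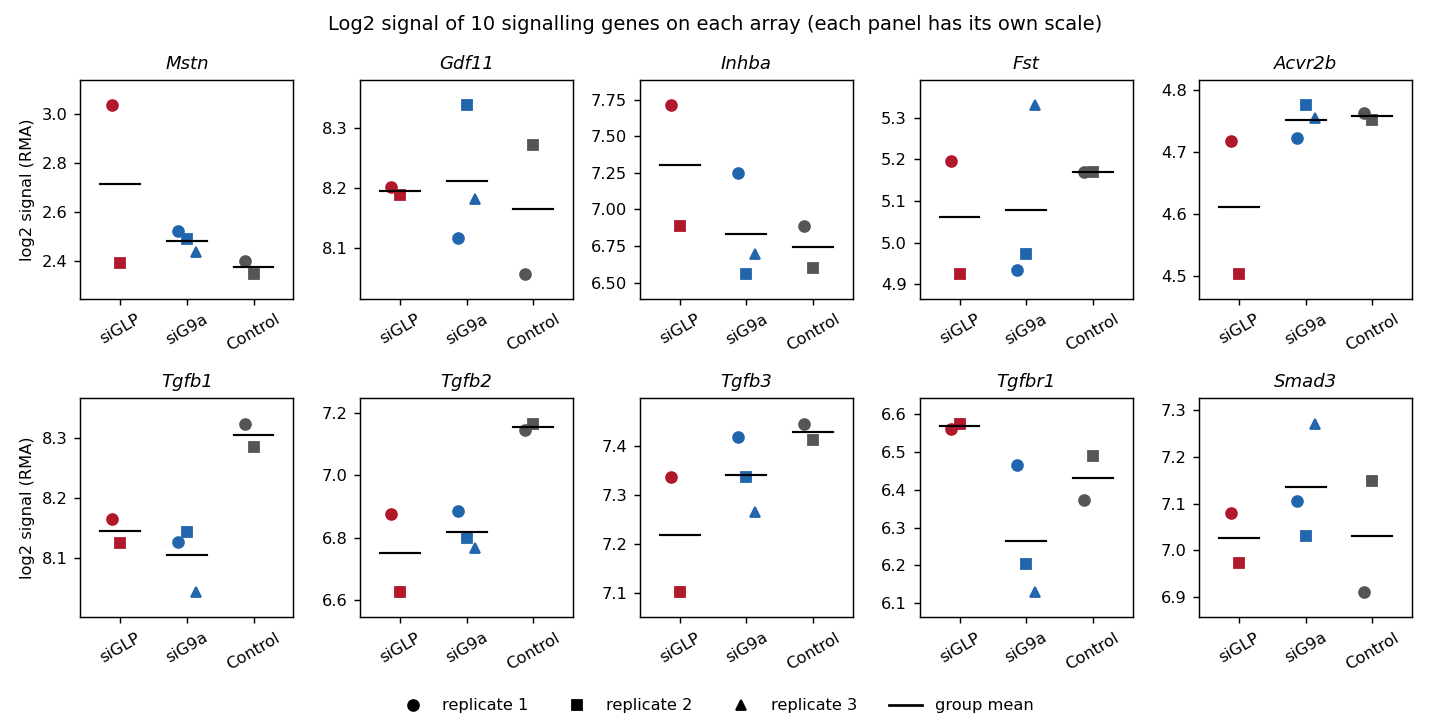
RMA log2 signal of the 10 genes on each array, with siGLP, siG9a and Control from left to right, replicates as circles (1), squares (2) and triangles (3), and group means as bars; each panel has its own vertical scale. All siGLP and siG9a arrays lie below both Control arrays for Tgfb1 and Tgfb2, while for Mstn and Inhba siGLP replicate 1 stands above the other arrays.

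Tgfb2 and Tgfb1 gave the smallest p-values of the 10 genes against Control in both knockdowns. Tgfb2, which encodes TGF-beta 2, a secreted ligand active in development and matrix formation, had a log2 signal of 6.88 and 6.63 in siGLP, 6.89, 6.80 and 6.77 in siG9a, and 7.15 and 7.17 in Control. All 5 knockdown arrays lay below both Control arrays, and the Control arrays lay within 0.020 of each other. Means ± SD were 6.75 ± 0.18 for the 2 siGLP arrays, 6.82 ± 0.061 for the 3 siG9a arrays and 7.16 ± 0.014 for the 2 Control arrays. The difference was -0.41 in siGLP (SE 0.097; 95% interval -0.63 to -0.18; 1.32-fold lower) and -0.34 in siG9a (SE 0.088; 95% interval -0.55 to -0.13; 1.26-fold lower). Neither passed over all genes (limma adjusted p = 0.30 in siGLP and 0.249 in siG9a). Tgfb2 ranked 308 of 22180 genes by p in siGLP and 586 in siG9a. With each array left out in turn its difference stayed between -0.53 and -0.28 in siGLP and between -0.37 and -0.31 in siG9a.

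Tgfb1, which encodes TGF-beta 1, the form best known for immune regulation and fibrosis, had a log2 signal of 8.17 and 8.13 in siGLP, 8.13, 8.14 and 8.04 in siG9a, and 8.32 and 8.28 in Control. Here too every knockdown array lay below both Control arrays, with smaller differences than those of Tgfb2. The difference was -0.16 in siGLP (SE 0.069; limma adjusted p = 0.597) and -0.20 in siG9a (SE 0.063; limma adjusted p = 0.342), a 1.12-fold and a 1.15-fold lower signal. An exact permutation test of a single gene can give no p below 0.1 for 3 arrays against 2, and none below 0.333 for 2 against 2 (two-sided). Tgfb1 and Tgfb2 stood at that 0.1 in siG9a, which requires arrays without overlap, as 25.7% of all genes had there. It therefore adds nothing to the lack of overlap already described.

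Tgfb3, which encodes TGF-beta 3, a ligand known from palate fusion, had 7.34 and 7.10 in siGLP, 7.42, 7.34 and 7.27 in siG9a, and 7.45 and 7.41 in Control. Both siGLP arrays lay below Control, while the highest siG9a array lay between the Control arrays. The difference was -0.21 in siGLP (SE 0.098; limma adjusted p = 0.628) and -0.09 in siG9a (SE 0.089; limma adjusted p = 0.764). In siGLP it was -0.33 without siGLP replicate 1 and -0.093 without siGLP replicate 2. The 3 TGF-beta ligands thus lay below Control in the mean of both knockdowns, and no difference between siGLP and siG9a passed for any of them (limma adjusted p 0.633 to 0.84).

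The sequences upstream of Tgfb2 and Tgfb1 are shown because these were the members in which the arrays of both knockdowns lay below Control. The share of all genes with that pattern was not counted. Each is the stretch of 250 bases before the gene's start, from the RefSeq promoter table of GRCm38.p6, which held 8 of the 10 genes (no entry was matched for Fst and Tgfb3). The Tgfb2 stretch lies at chr1:186705990-186706239 on the minus strand and that of Tgfb1 at chr7:25686752-25687001 on the plus strand. Capitals mark matches on either strand to 4 motifs: the E-box CANNTG (in 66.2% of 32851 RefSeq promoter stretches of this length), the Smad box CAGAC (42.2%), the TATA box TATAAA (12.4%) and the cyclic AMP element core TGACG (17.8%).
Tgfb2: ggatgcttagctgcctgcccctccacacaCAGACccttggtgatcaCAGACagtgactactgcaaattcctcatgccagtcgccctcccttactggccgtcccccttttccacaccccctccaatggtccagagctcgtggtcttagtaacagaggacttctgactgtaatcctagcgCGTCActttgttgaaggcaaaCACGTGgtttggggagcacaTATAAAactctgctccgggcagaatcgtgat
Tgfb1: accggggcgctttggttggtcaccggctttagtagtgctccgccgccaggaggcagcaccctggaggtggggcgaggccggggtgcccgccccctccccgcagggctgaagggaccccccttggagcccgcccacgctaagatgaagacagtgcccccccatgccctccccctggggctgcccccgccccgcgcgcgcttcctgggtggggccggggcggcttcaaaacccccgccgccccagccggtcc
The Tgfb2 stretch held a TATA box beginning 31 bases before the start, an E-box at 51, a cyclic AMP element core at 72, and 2 Smad boxes at 204 and 221. The Tgfb1 stretch held none of the 4 motifs. Its G and C content was 75.2% with 21 CpG pairs, against 53.6% and 8 in Tgfb2 and a median of 52.4% and 6 over all promoter stretches. The matches describe the letters only, and no binding was measured.

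Mstn encodes myostatin, the secreted inhibitor of muscle growth. Its log2 signal was 3.04 and 2.39 in siGLP, 2.52, 2.49 and 2.44 in siG9a, and 2.40 and 2.35 in Control. All 7 values were under the lower quartile of each array's probe sets (3.32 to 3.36), so no Mstn signal above background can be claimed in these myoblasts. The 3 siG9a arrays lay just above both Control arrays, and siGLP replicate 1 stood well above the other arrays. The difference was 0.34 in siGLP (SE 0.19; limma adjusted p = 0.705) and 0.11 in siG9a (SE 0.17; limma adjusted p = 0.856). In siGLP it was 0.018 without siGLP replicate 1 and 0.66 without siGLP replicate 2, so that 1 array decided its size.

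The stretch of 250 bases before Mstn, at chr1:53061390-53061639 on the plus strand of GRCm38.p6 (RefSeq), is shown for comparison with those of the TGF-beta ligands, with the same 4 motifs in capitals.
Mstn: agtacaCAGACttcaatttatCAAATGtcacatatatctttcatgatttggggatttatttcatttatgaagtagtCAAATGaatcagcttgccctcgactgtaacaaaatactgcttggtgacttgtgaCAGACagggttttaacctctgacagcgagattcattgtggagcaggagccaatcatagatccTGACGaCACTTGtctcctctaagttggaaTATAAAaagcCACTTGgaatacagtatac
It held 4 E-boxes, a pattern that covers the sites of MyoD and its relatives and lies in 66.2% of promoter stretches. They read CACTTG at 19 and 52 bases before the start and CAAATG at 174 and 229, and MyoD binding was not measured. A TATA box began at 29, a cyclic AMP element core at 58 and Smad boxes at 120 and 244. Its G and C content was 38.4% with 3 CpG pairs. Myod1 itself had a mean log2 signal of 7.63 in siGLP, 6.95 in siG9a and 7.63 in Control. Any part of Myod1 in the level of Mstn was not tested.

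Gdf11, which encodes the ligand closest to myostatin, had 8.20 and 8.19 in siGLP, 8.12, 8.34 and 8.18 in siG9a, and 8.06 and 8.27 in Control. The groups overlapped throughout, and the 2 Control arrays enclosed both siGLP arrays. The difference was 0.03 in siGLP (95% interval -0.22 to 0.28) and 0.05 in siG9a (95% interval -0.18 to 0.27), with limma adjusted p of 0.968 and 0.892. Differences within these intervals are not excluded.

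Inhba encodes the beta A subunit, 2 copies of which form activin A. Its log2 signal was 7.71 and 6.89 in siGLP, 7.25, 6.56 and 6.70 in siG9a, and 6.89 and 6.60 in Control. It varied more than any other of the 10 genes, with a range of 1.15 over the 7 arrays. Both siGLP arrays lay above Control, the lower of them by a margin that is lost when the values are written to 2 decimals. The difference was 0.56 in siGLP (SE 0.31; 95% interval -0.18 to 1.30; 1.47-fold higher; limma adjusted p = 0.712) and 0.09 in siG9a (SE 0.28; limma adjusted p = 0.939). In siGLP it was 0.15 without siGLP replicate 1 and 0.97 without siGLP replicate 2.

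The siGLP arrays differed from each other in several of these genes. Inhba was higher by 0.82 and Mstn by 0.64 on siGLP replicate 1 than on siGLP replicate 2, against a median size of 0.10 over all genes, which placed them at the 99.6th and 98.9th percentile of that size. On siGLP replicate 2, 4 of the 10 genes had their lowest value of the 7 arrays (Fst, Acvr2b, Tgfb2 and Tgfb3). The share of all genes with their lowest value on that array was not counted. Among the members other than Inhba and Mstn, the difference of replicate 1 from replicate 2 ran from -0.014 for Tgfbr1 to 0.27 for Fst.

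Fst encodes follistatin, which binds activin and myostatin and keeps them from their receptors. Its log2 signal was 5.20 and 4.93 in siGLP, 4.93, 4.97 and 5.33 in siG9a, and 5.17 and 5.17 in Control. The Control arrays held the same value to every digit deposited, as did 6.63% of all probe sets, so an SD of 0 there is no measure of spread. The difference was -0.11 in siGLP (SE 0.15; limma adjusted p = 0.896) and -0.09 in siG9a (SE 0.14; limma adjusted p = 0.855), and arrays of both knockdowns lay on both sides of Control.

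Acvr2b encodes ActRIIB, the type II receptor to which myostatin binds. Its log2 signal was 4.72 and 4.50 in siGLP, 4.72, 4.78 and 4.76 in siG9a, and 4.76 and 4.75 in Control. Both siGLP arrays lay below every other array, replicate 1 narrowly and replicate 2 by more. The difference was -0.15 in siGLP (SE 0.085; limma adjusted p = 0.726) and -0.0064 in siG9a (SE 0.078; limma adjusted p = 0.99). In siGLP it was -0.25 without siGLP replicate 1 and -0.039 without siGLP replicate 2.

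Tgfbr1 encodes ALK5, the type I receptor kinase that phosphorylates SMAD2 and SMAD3. Its log2 signal was 6.56 and 6.58 in siGLP, 6.46, 6.20 and 6.13 in siG9a, and 6.37 and 6.49 in Control. It was the member in which siGLP and siG9a differed with the smallest p. Both siGLP arrays lay above Control (0.14, SE 0.12; limma adjusted p = 0.811), while 2 of 3 siG9a arrays lay below it (-0.17, SE 0.11; limma adjusted p = 0.643). The difference of siGLP from siG9a was 0.30 (SE 0.11; 95% interval 0.049 to 0.56; 1.23-fold higher), with an unadjusted p of 0.0258 that did not pass over all genes (limma adjusted p = 0.321). With each array left out in turn this difference stayed between 0.23 and 0.40.

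Smad3 encodes the transcription factor that carries the signal to the nucleus. Its log2 signal was 7.08 and 6.97 in siGLP, 7.10, 7.03 and 7.27 in siG9a, and 6.91 and 7.15 in Control. The 3 groups overlapped. The difference was -0.0042 in siGLP (95% interval -0.28 to 0.27) and 0.11 in siG9a (95% interval -0.14 to 0.35), with limma adjusted p of 1.0 and 0.76.

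**Figure D2:**
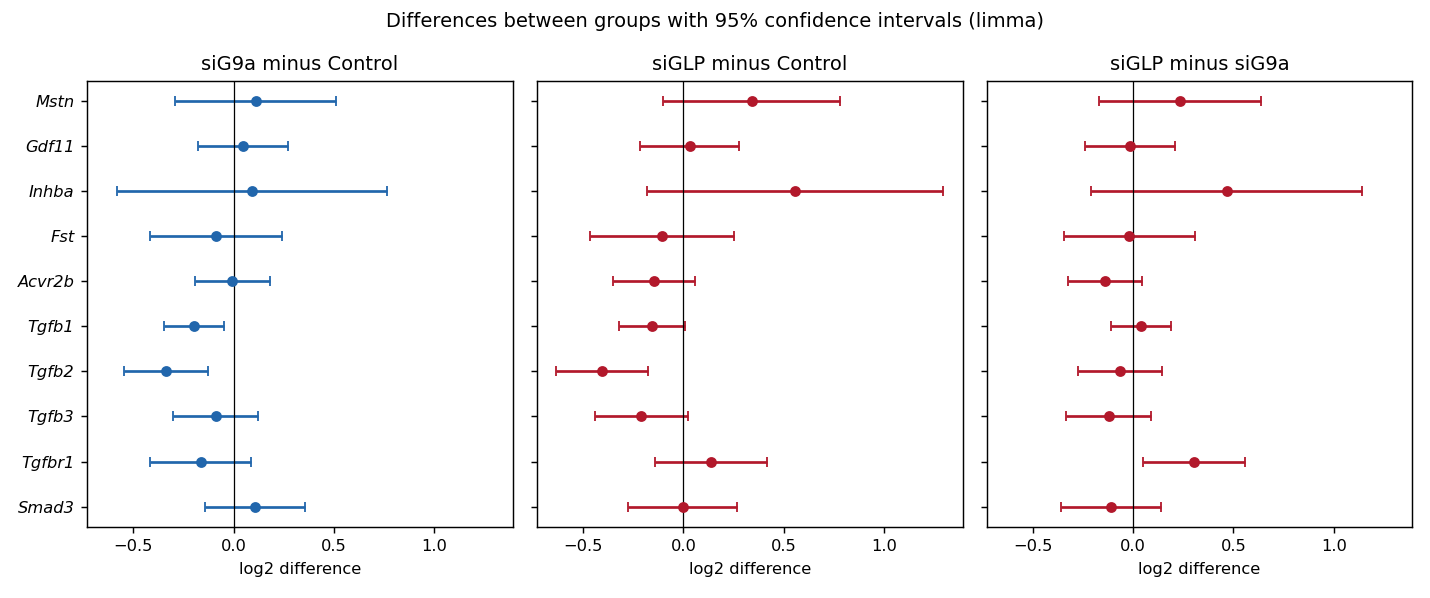
Log2 differences of the 10 genes with 95% confidence intervals from the limma fit over all 7 arrays, with siG9a over Control on the left, siGLP over Control in the middle and siGLP over siG9a on the right. The intervals of Tgfb2 lie below 0 in both knockdowns (-0.55 to -0.13 in siG9a and -0.63 to -0.18 in siGLP). That of Tgfb1 lies below 0 in siG9a (-0.35 to -0.049), and that of Tgfbr1 lies above 0 for siGLP over siG9a. None of these differences passed over all genes.

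Of the 10 genes, 6 lay below Control in siGLP with a median difference of -0.056, and 6 lay below Control in siG9a with a median of -0.048. Over all 22180 genes 49.2% and 48.0% lay below Control, with medians of 0.0015 and 0.0052. Under every alternative setting that gave a value, 7 of the 10 genes kept their direction in siGLP and 6 of the 10 in siG9a. In siGLP these were Mstn, Inhba, Acvr2b, Tgfb1, Tgfb2, Tgfb3 and Tgfbr1, and in siG9a Mstn, Fst, Tgfb1, Tgfb2, Tgfb3 and Tgfbr1. There were 15 alternative settings, and 14 for Mstn and Acvr2b, which lie below the median level and have no value when low genes are left out. Settings that changed only the variance model, the third group or the set of genes could not move a difference. The probe set rule could not either, as each member had 1 probe set. Leaving out an array or adding the replicate block could not turn the direction where arrays of the compared groups did not overlap. That held in siGLP for Inhba, Acvr2b, Tgfb1, Tgfb2, Tgfb3 and Tgfbr1, and in siG9a for Mstn, Tgfb1 and Tgfb2. For those genes a kept direction therefore speaks only for the normalizations. For the others it speaks also for arrays left out of the compared groups and, in siG9a, the replicate block. No member passed over all genes under any of these settings.

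**Figure D3:**
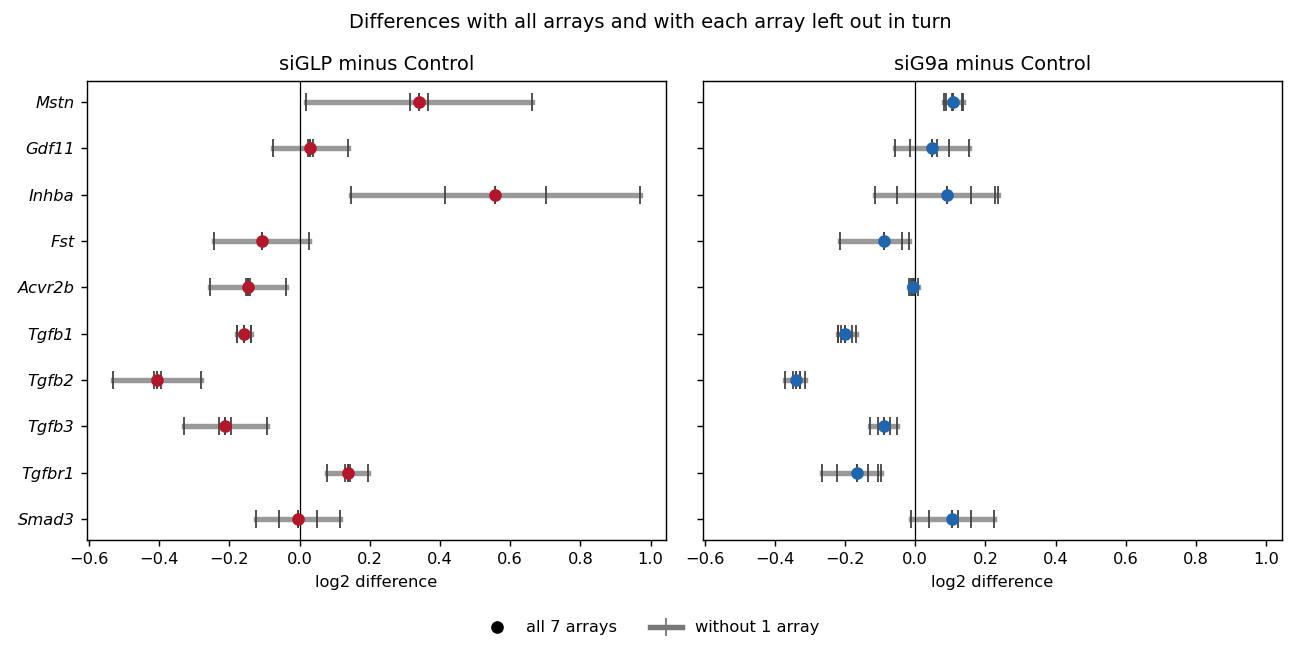
Log2 differences of the 10 genes for siGLP minus Control (left) and siG9a minus Control (right), with all 7 arrays (filled circles) and with each array left out in turn (ticks, joined by a grey bar). Tgfb2 stays between -0.53 and -0.28 in siGLP and between -0.37 and -0.31 in siG9a, while Mstn and Inhba in siGLP spread over 0.018 to 0.66 and 0.15 to 0.97.

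Tgfb2 had the smallest p of the 10 genes in both knockdowns, and the genes with the most similar pattern to it were sought among 10392 genes at or above the median level, those with RefSeq symbols other than predicted genes, clone names and small RNAs. The highest Pearson's r over the 7 arrays belonged to Pdcd11 (0.989), Gas2 (0.981), Gid4 (0.98), Tbc1d31 (0.965) and Cbl (0.962). These values describe 7 points that share the same groups and arrays, and were picked as the highest of many. Pdcd11 differed by -0.23 in siGLP and -0.20 in siG9a, Gas2 by -0.084 and -0.086, and Tbc1d31 by -0.44 and -0.31. Gid4, a subunit of a ubiquitin ligase, differed by -0.53 in siGLP and -0.37 in siG9a, and Cbl, a ubiquitin ligase acting on receptor kinases, by -0.21 and -0.23.

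The rest of the pathway was examined through 7 lists, also chosen with earlier results of these data known. They held 105 genes, of which 99 were measured. Against Control, no listed gene passed over all genes in siGLP (limma; 11 at an unadjusted p under 0.05, where 8.63% of all genes did so, and smallest adjusted p 0.219) or in siG9a (limma; 16 at an unadjusted p under 0.05, against 10.5% of all genes, and smallest adjusted p 0.073). In siGLP against siG9a 2 of the 99 passed, both higher in siGLP, where 0.234% of all genes passed in either direction.

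Ski and Tagln were these 2 genes. Ski, a corepressor that binds SMADs and silences their targets, had a log2 signal of 7.52 and 7.44 in siGLP, 6.93, 6.98 and 6.96 in siG9a, and 7.48 and 7.49 in Control. The siG9a arrays lay together below both other groups. Its difference was 0.53 for siGLP against siG9a (SE 0.060; limma adjusted p = 0.0409), -0.0068 for siGLP against Control (limma adjusted p = 0.994) and -0.53 for siG9a against Control (SE 0.060; limma adjusted p = 0.073). Tagln, which encodes the actin-binding protein transgelin and is a classic TGF-beta response gene of smooth muscle, had 8.74 and 8.89 in siGLP, 8.11, 8.10 and 7.88 in siG9a, and 8.63 and 8.76 in Control. Its difference was 0.78 for siGLP against siG9a (SE 0.099; limma adjusted p = 0.0478), 0.12 for siGLP against Control (limma adjusted p = 0.826) and -0.67 for siG9a against Control (SE 0.099; limma adjusted p = 0.108). Neither call held when any 1 of the 7 arrays was left out, with limma adjusted p of 0.113 to 0.246 for Ski and 0.126 to 0.249 for Tagln. The differences themselves stayed between 0.49 and 0.57 for Ski and between 0.71 and 0.86 for Tagln. They were also lost when only siGLP and siG9a entered the fit, with the replicate number as a block, and without variance moderation (limma adjusted p of 0.0898 to 0.22 for Ski and 0.16 to 0.198 for Tagln). When genes under the median level were dropped, Ski (limma adjusted p = 0.0186) and Tagln (0.0346) also passed in siG9a against Control. With trended, robust variance moderation Ski (limma adjusted p = 0.024), Tagln (0.0351) and Cdkn1a (0.0462) passed there.

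Among the other ligands and coreceptors (12 of 14 measured) the median difference was 0.082 in siGLP and 0.045 in siG9a. Tgfbr3, the coreceptor betaglycan that presents TGF-beta 2 to its receptors, stood at 0.44 in siGLP and 0.25 in siG9a (limma adjusted p = 0.618 and 0.684). Inhbb, the activin beta B subunit, stood at -0.20 in siGLP and -0.15 in siG9a (limma adjusted p = 0.707 and 0.649). Nodal stood at 0.11 in siGLP and 0.13 in siG9a. Opposite directions were seen for Cfc1 (0.18 in siGLP and -0.032 in siG9a), Inhbe (0.21 and -0.10) and Lefty2 (0.058 and -0.15). Limma adjusted p for Nodal, Cfc1, Inhbe and Lefty2 was at least 0.615. No gene of this list reached an unadjusted p under 0.05 against Control.

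Genes of ligand release and latency (16 of 17 measured) had a median of 0.020 in siGLP and -0.027 in siG9a. Itgb8, the integrin subunit that frees latent TGF-beta, had 6.64 and 6.62 in siGLP, 6.94, 6.94 and 6.98 in siG9a, and 6.99 and 7.25 in Control. All knockdown arrays lay below both Control arrays, with a difference of -0.49 in siGLP (SE 0.096; limma adjusted p = 0.219) and -0.17 in siG9a (SE 0.087; limma adjusted p = 0.565). Ltbp4, a latent TGF-beta binding protein of the matrix, stood at -0.32 in siGLP and -0.33 in siG9a (limma adjusted p = 0.519 and 0.358). Its relative Ltbp3 stood at 0.34 in siGLP and 0.074 in siG9a (limma adjusted p = 0.405 and 0.819), and Ltbp1 at 0.043 and -0.23 (limma adjusted p = 0.96 and 0.541).

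Extracellular inhibitors (10 of 11 measured) had a median of 0.050 in siGLP and 0.070 in siG9a, and none reached an unadjusted p under 0.05 against Control. Wfikkn1, which binds myostatin and GDF11, stood at 0.27 in siGLP and 0.24 in siG9a, and Bambi, a decoy receptor, at 0.21 and 0.16. The follistatin relative Fstl1 stood at -0.14 in both knockdowns. Limma adjusted p for these 3 genes was at least 0.595. Dcn, with the smallest p of the list in siG9a, differed in direction, at -0.14 in siGLP and 0.27 in siG9a (limma adjusted p = 0.859 and 0.544).

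The other receptors (all 7 measured) had a median of -0.0025 in siGLP and 0.046 in siG9a. Acvr2a, the second activin type II receptor, had 7.78 and 8.06 in siGLP, 8.23, 8.12 and 8.07 in siG9a, and 7.72 and 7.80 in Control. Its siG9a arrays all lay above Control, with a difference of 0.16 in siGLP (limma adjusted p = 0.755) and 0.38 in siG9a (SE 0.098; limma adjusted p = 0.245). Acvr1b, which encodes ALK4, the type I receptor of activin, stood at 0.11 in siGLP and 0.34 in siG9a (limma adjusted p = 0.884 and 0.407). Bmpr2, the type II receptor of the BMP branch, had 9.61 and 9.47 in siGLP, 9.33, 9.03 and 9.07 in siG9a, and 9.57 and 9.78 in Control, a difference of -0.13 in siGLP (limma adjusted p = 0.834) and -0.53 in siG9a (SE 0.12; limma adjusted p = 0.182). Tgfbr2, the type II receptor of the TGF-betas, stood at -0.021 in siGLP and 0.046 in siG9a (limma adjusted p = 0.977 and 0.885), and it is named for its role, outside the rule for named genes.

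Smads and their partners (all 13 measured) had a median of -0.018 in siGLP and 0.039 in siG9a. In siG9a the ubiquitin ligase gene Traf6 stood at 0.22 and the endosomal adaptor gene Hgs at 0.24 (limma adjusted p = 0.353 and 0.381), with Smad2 at 0.16 (limma adjusted p = 0.596). In siGLP these 3 stood at 0.089, 0.045 and 0.070. The deubiquitinase gene Usp9x stood at -0.24 in siGLP and -0.12 in siG9a (limma adjusted p = 0.705 in siGLP).

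Intracellular inhibitors (all 13 measured), the list that holds Ski, had a median of 0.019 in siGLP and -0.017 in siG9a. Pmepa1, which sequesters SMADs and is itself induced by TGF-beta, had 8.82 and 8.83 in siGLP, 9.00, 8.86 and 9.06 in siG9a, and 8.18 and 8.65 in Control. All knockdown arrays lay above both Control arrays, which were 0.47 apart, with a difference of 0.41 in siGLP (SE 0.15; limma adjusted p = 0.513) and 0.56 in siG9a (SE 0.14; limma adjusted p = 0.23). Smad7, the feedback inhibitor of the pathway, stood at 0.15 in siGLP and 0.21 in siG9a (limma adjusted p = 0.742 and 0.481).

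**Figure D4:**
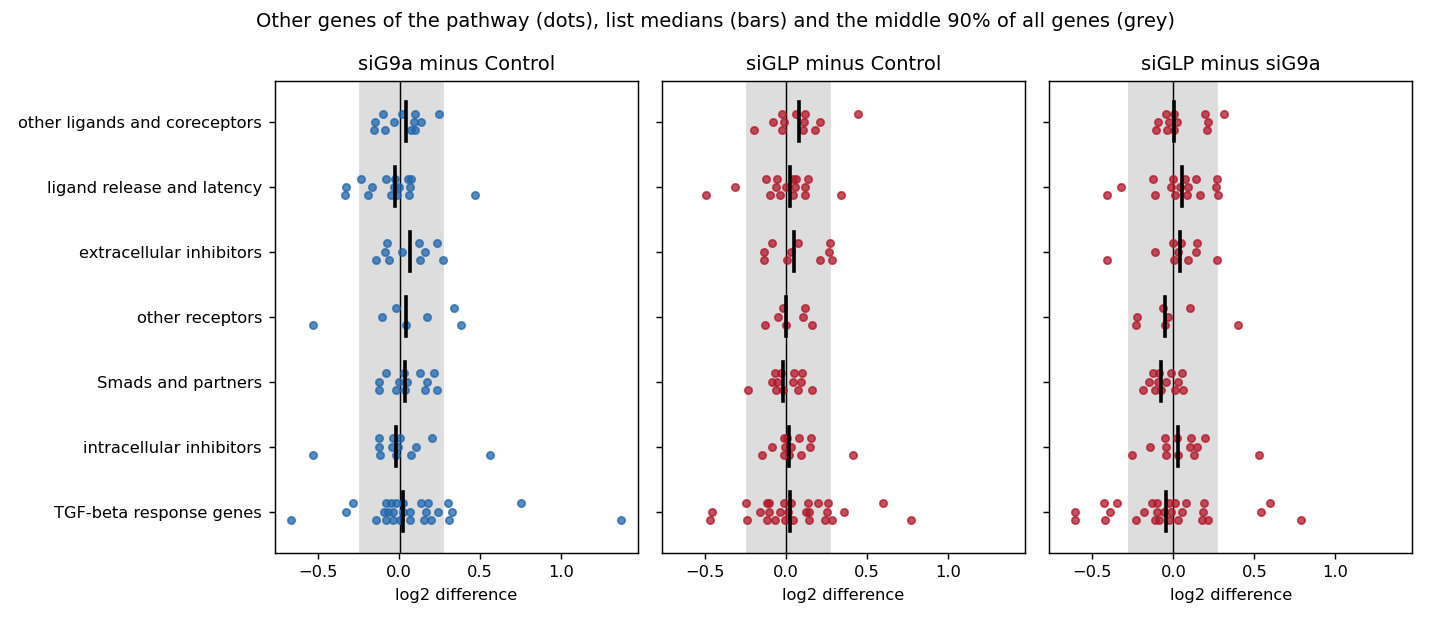
Log2 differences of 99 other genes of the pathway (dots) by list, with the list median (black bar), the median of all genes (thin line) and the middle 90% of all genes (grey band). List medians lie within 0.082 of 0 in all 3 comparisons, and single response genes such as Postn (1.37 in siG9a) lie outside the band.

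The TGF-beta response genes (28 of 30 measured) had a median of 0.022 in siGLP and 0.022 in siG9a. Beyond Tagln, Postn, which encodes the matrix protein periostin, had the largest difference from Control of the list in both knockdowns, with 6.99 and 7.09 in siGLP, 7.91, 7.35 and 7.68 in siG9a, and 5.79 and 6.76 in Control. The knockdown arrays all lay above Control, but the Control arrays were 0.98 apart. The difference was 0.77 in siGLP (SE 0.31; limma adjusted p = 0.559) and 1.37 in siG9a (SE 0.28; 2.59-fold higher; limma adjusted p = 0.17). Nox4, an oxidase that makes hydrogen peroxide, had 6.79 and 6.79 in siGLP, 7.46, 6.92 and 7.15 in siG9a, and 6.42 and 6.44 in Control, a difference of 0.36 in siGLP and 0.75 in siG9a (limma adjusted p = 0.602 and 0.154). Its siGLP arrays held an identical value, so their SD of 0 is no measure of spread. Cdkn1a, which encodes the cell cycle inhibitor p21, stood at 0.24 in siGLP and 0.33 in siG9a (limma adjusted p = 0.434 and 0.178), and of the 15 alternative settings it passed in siG9a only with trended, robust variance moderation.

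Col3a1, a chain of fibrillar collagen, lay below Control on every knockdown array. It had 9.18 and 9.33 in siGLP, 9.41, 9.44 and 9.31 in siG9a, and 9.79 and 9.64 in Control, with a difference of -0.46 in siGLP and -0.33 in siG9a (limma adjusted p = 0.225 and 0.244). Of the response genes named for siGLP alone, the matricellular protein gene Ccn1 stood at 0.26 in siGLP and 0.069 in siG9a and the cytokine gene Il11 at 0.60 in siGLP and 0.0049 in siG9a (limma adjusted p = 0.464 and 0.498 in siGLP). Of the 28 genes, 15 lay above Control in siGLP and 16 in siG9a, and the list as a whole had no common direction by count or median.

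**Figure D5:**
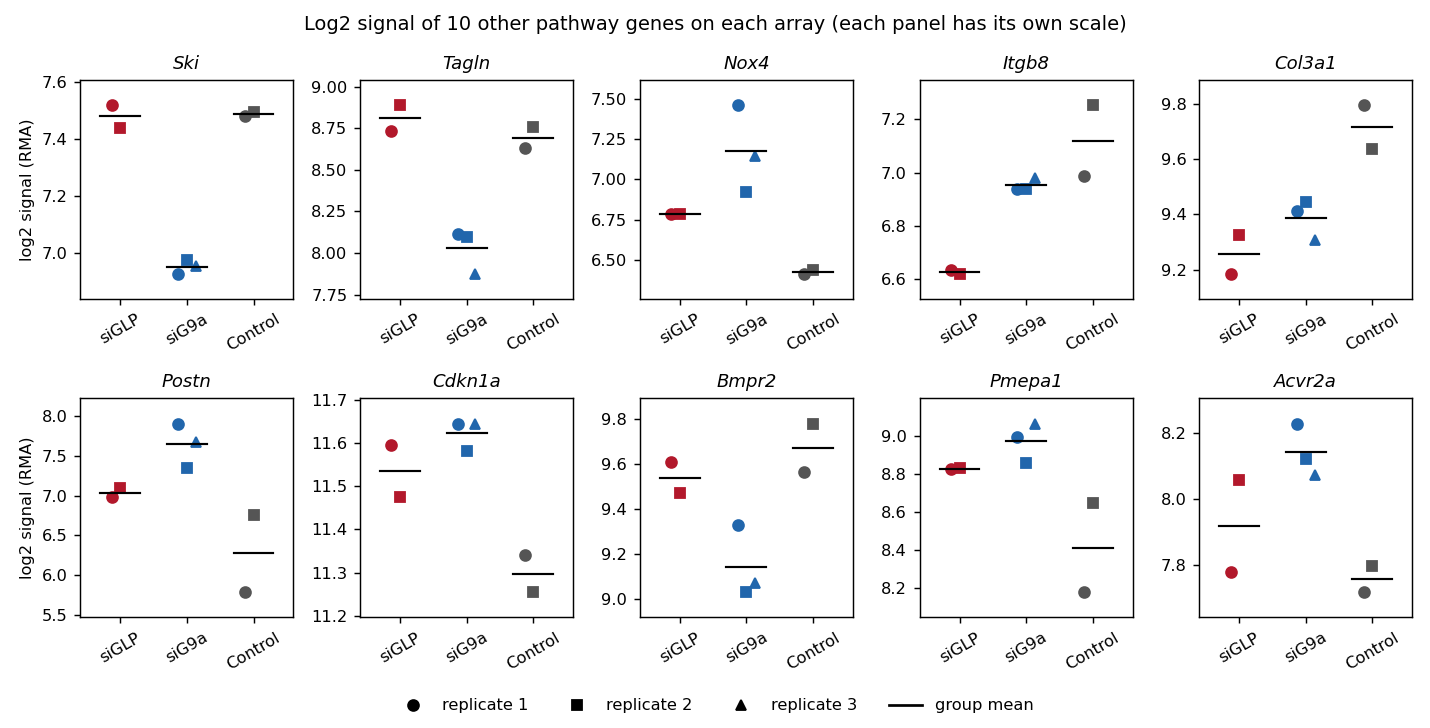
RMA log2 signal on each array of the 10 named pathway genes with the smallest unadjusted p against Control in either knockdown, with siGLP, siG9a and Control from left to right and group means as bars; each panel has its own vertical scale. The siG9a arrays of Ski and Tagln lie below both other groups, and all knockdown arrays of Postn, Nox4, Cdkn1a and Pmepa1 lie above Control.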

How the data were processed

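RNA from 7 C2C12 samples was measured on 1 single-colour Affymetrix array each, and groups were taken from the siRNA in the labels. The deposited table holds log2 values per probe set, made by the authors with RMA (background correction, quantile normalization and probe summary), and the submitters' processing notes also name Partek, without versions. RMA makes values relative to the bulk of transcripts and compresses dim probe sets. The log2 scale was taken from the range of the values; the sources used here give no scan date, batch or authors' test. Of 33649 probe sets, 23521 had 1 gene symbol, 1814 several and 8314 none. Symbols were updated through gene numbers to RefSeq genes of GRCm38.p6 (23328 matched), and the probe set with the highest mean was kept, leaving 22180 genes, with no filter on level.

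Differences were fitted with limma 3.58.1 in R 4.3.3 (lmFit and eBayes, all 7 arrays, 1 mean per group, 4 residual degrees of freedom, 6.89 with moderation). P-values are two-sided with Benjamini-Hochberg adjustment over all genes, and a gene passed under 0.05. The scripts were tested on simulated data. Members and lists were chosen with earlier results of these data known. Named genes are the 10 members, Ehmt2, Ehmt1 and, from each list and each comparison with Control, up to 4 genes with the smallest p and any that passed. The number of arrays limits the precision. Alternatives left out each array, the third group, low genes or variance moderation, or changed the normalization, the variance model, the probe set rule or added the replicate number as a block.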

Additional observations from a re-analysis of the deposited data

How the results depend on the processing

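No member passed over all genes under any of the 15 settings that gave it a value. The count over all genes moved. With trended, robust variance moderation it was 23 in siGLP against Control, 100 in siG9a against Control and 304 in siGLP against siG9a, and after dropping genes under the median level it was 21, 148 and 350, against 1, 6 and 52 in the fit reported. It was 0 in all 3 with the replicate block and with only the 2 groups compared in the fit, and 0, 0 and 3 without variance moderation. Without 1 array it was 0 to 1 in siGLP against Control and 0 in the other comparisons. The same settings were run for the listed pathway genes, a choice made after seeing the data. Those that passed numbered 3 (trended) and 2 (low genes left out) in siG9a against Control. In siGLP against siG9a they numbered 0, against 2, with the replicate block, with only the 2 groups, without variance moderation and without any 1 array.

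Some small differences changed sign. Without 1 array, Gdf11 ranged from -0.076 to 0.14 in siGLP, from -0.059 to 0.15 in siG9a and from -0.065 to 0.045 between them. Smad3 ranged from -0.12 to 0.12 in siGLP and from -0.013 to 0.23 in siG9a. Fst ranged from -0.24 to 0.027 in siGLP and from -0.15 to 0.12 in siGLP against siG9a, where it was 0.11 with the replicate block. Inhba ranged from -0.11 to 0.24 in siG9a. In siGLP against siG9a Mstn ranged from -0.091 to 0.55 and Tgfb2 from -0.19 to 0.057. Acvr2b in siG9a ranged from -0.019 to 0.0082, and was 0.00017 with quantile and 0.0029 with cyclic loess normalization. The causes were not tested. Correlations of deviations were small and positive in every pair of same-numbered arrays (0.0047 to 0.17). They ran from -0.17 to 0.15 between differently numbered arrays of different groups. The deviations of the Control arrays mirror each other, as do those of the siGLP arrays, so these values are not independent. They do not settle whether the numbers mark pairs, and the numbers were not taken as pairs in the fit reported. Acvr2b and Mstn lie below the median level and have no value with low genes left out.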

Other observations

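Of the 28 TGF-beta response genes measured, 8 had an unadjusted p under 0.05 in siGLP against siG9a, 3 of them higher (Tagln, Il11 and Timp3) and 5 lower (Bhlhe40, Pdgfb, Itga5, Col1a1 and Nox4), where 12.4% of all genes reached that p. They are named here after their values were seen. Bhlhe40, a transcriptional repressor of the circadian clock, stood at -0.42 in siGLP against siG9a (limma adjusted p = 0.158). The growth factor gene Pdgfb stood at -0.43 and the fibronectin receptor subunit gene Itga5 at -0.35 (limma adjusted p = 0.199 and 0.19). Il11 stood at 0.59 and Timp3, which encodes an inhibitor of matrix proteases, at 0.54 (both limma adjusted p = 0.288). Of the 8 genes only Tagln passed over all genes in the fit over all 7 arrays.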
